A study of Hippoglossus hippoglossus with 15 samples.

Results

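The transcripts described here are 3 of antigen presentation, *mhc1a*, *mhc2a* and *psmb9*, in embryos of Atlantic halibut (*Hippoglossus hippoglossus*). Their probes on a custom oligonucleotide array are HH_Contig2306 for *mhc1a*, HH_38317730 for *mhc2a* and HH_Contig1979 for *psmb9*, 3 of the 10180 probe names printed. They were taken because tables of the study pair these names with these probes. The study picked all 3 from the comparison of low with high quality eggs on these same arrays, so the direction of that comparison is not independent evidence here.

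Total RNA of whole embryos was hybridized in 1 colour (Cy3) to 15 arrays on 5 slides, in 5 groups of 3 arrays. Low quality embryos were taken with 8 cells (8CS), at 8 hours after fertilization (hpf), and came from eggs of poor fertilization and hatching success. High quality embryos were taken at 8CS (8 hpf), at the germ ring stage (GR, 82 hpf), at 10 somites (10SS, 142 hpf) and after hatching (HT, 340 hpf), and the high quality 8CS arrays served both comparisons. All eggs were fertilized in vitro with pooled sperm, and no treatment or genetic change was compared. The labels place every sample at a single commercial farm, whereas the methods describe another collection of females for the comparison of qualities, whose eggs were kept in dishes of seawater with antibiotics. If the collections differed between the 8CS groups, collection and egg quality cannot be told apart. By the methods, low quality 8CS and the later stages came from separate collections, so collection and stage cannot be told apart between them. The same holds for high quality 8CS against the later stages if its arrays came from the collection for the qualities. The methods name 3 batches of eggs for the stages and 3 groups of each quality, but the labels tie no array to a female or batch, so p-values measure only the spread between these samples. In whole embryos, fewer cells that carry a transcript and less of it per cell cannot be told apart.

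Antigen presentation shows fragments of proteins to T cells. The proteasome cuts proteins inside the cell, and peptides from it are loaded onto class I molecules of the major histocompatibility complex (MHC), which most nucleated cells carry. Class II molecules are made of an alpha and a beta chain, bind peptides of proteins taken up from outside and are typical of specialised presenting cells. *mhc1a* encodes the class I alpha chain, *mhc2a* the class II alpha chain and *psmb9* a catalytic beta subunit of the immunoproteasome, which interferon gamma induces in mammals. An 8-cell embryo of a fish relies largely on RNA laid down by the mother.

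The letters of the array probes were not among the sequences used here. The qPCR primers of the study are shown because they let a reader set the MHC chains side by side. They are written 5′ to 3′, and capitals mark the stretch at the 3′ end that the *mhc1a* and *mhc2a* primers of one direction share.
mhc1a forward: tgatgtCTGGATGTGAATG
mhc2a forward: tgagtaaCTGGATGTGAATG
mhc1a reverse: ctggagGAGGTAGTTCTT
mhc2a reverse: ctggcattGAGGTAGTTCTT
psmb9 forward: aaatctgggatgtgaacg
psmb9 reverse: tttgatgaggaagaaggtt

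The forward primers of *mhc1a* and *mhc2a* ended in the same 13 bases and the reverse primers in the same 12. Among the 275 other combinations of the 24 forward primers in the table, the longest shared 3′ end was 7 bases, and it was also 7 among the reverse primers. The *psmb9* primers shared 1 base with *mhc2a* at the forward 3′ end and 2 at the reverse 3′ end. This is a property of the primers, and the qPCR values were not used.

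The names of the probes were also set against the sequence records listed with them. For probes made from a single sequence, the number in the probe name was often the record's number plus a constant. This held for all 4 table entries whose records share the prefix and number range of the *mhc2a* record, though in other ranges for as few as 4 of 35. By this constant the record listed for *mhc2a* belongs to a probe name that is not on the array, while the number in HH_38317730 lies 42 from its nearest neighbour in the tables, a probe of another set of records. The constant also held for all 105 table entries in the number range of the *mhc1a* record and of the first *psmb9* record. The record listed for *mhc1a* would give a probe name that is not on the array, and HH_Contig2306 is an assembled contig. The record listed for *psmb9* belongs by it to a separate probe that is on the array, HH_90602669, and the primer table lists *psmb9* with a different record again, in a range where the constant held for 23 of 24 entries. The *psmb9* probe is a contig as well, and a contig can hold several records. Values of HH_90602669 are therefore given beside those of HH_Contig1979. The gene table of the halibut assembly fHipHip1.pri holds 1 symbol starting with psmb9, psmb9a, and none starting with mhc. In the order of protein-coding genes on its chromosome, psmb9a stands between tap2a, a subunit of the transporter that carries peptides to class I molecules, and psmb12, followed by psmb13a and psmb8a, with brd2a beyond tap2a. The array probe was not matched to that gene by sequence.

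Levels are means of log2 processed signals, set relative to the 75th percentile of each array, and are given ± SD over 3 arrays. A probe is called well above background on an array where more than 50% of its spots pass that flag of the extraction software. The share of all probes that passed ranged from 75.7% to 79.8% on low quality 8CS arrays, from 76.2% to 80.6% in high quality 8CS, from 69.3% to 77.3% at GR, from 80.1% to 87% at 10SS and from 86.9% to 90.1% at HT. Array 3 of 10SS stood apart, with correlations of 0.861 and 0.865 with the other 10SS arrays, which correlated at 0.991 with each other. High quality 8CS array 3 came next, at 0.967 and 0.961 with the others of its group, which correlated at 0.989. The 75th percentile signal itself was 956 to 1445 in low quality 8CS, 716 to 1151 in high quality 8CS, 515 to 856 at GR, 1651 to 2173 at 10SS and 2750 to 2976 at HT. A level is therefore relative to the rest of the array, and the same raw signal gives a lower level at HT than at 8CS.

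The class I alpha chain was measured in every group. *mhc1a* was well above background on all 15 arrays and in 59 of its 60 spots, the remaining spot being on high quality 8CS array 1. Its levels were -3.67, -3.62 and -3.93 on the low quality 8CS arrays, against -5.44, -5.15 and -4.66 on the high quality 8CS arrays. All 3 low quality arrays lay above all 3 high quality arrays. The means were -3.74 ± 0.17 in low and -5.08 ± 0.40 in high quality embryos, a difference of 1.34 on the log2 scale (2.53-fold) with a 95% interval of 0.76 to 1.93. The adjusted p was 0.0624 in the limma fit over the 6 8CS arrays, so the call at 0.05 was missed.

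The immunoproteasome subunit was measured in every spot, with all 60 well above background. *psmb9* stood at -1.27, -1.75 and -0.59 on the low quality 8CS arrays, against -3.52, -3.003 and -2.999 on the high quality 8CS arrays. Again no array of one quality reached into the other. The means were -1.21 ± 0.58 in low and -3.18 ± 0.30 in high quality embryos, which is a difference of 1.97 (3.92-fold, 95% interval 1.17 to 2.76). Its adjusted p from limma was 0.0535. Under a normexp background correction the difference was 0.86 (adjusted p = 0.858).

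The class II alpha chain was near background outside the low quality embryos. *mhc2a* stood at -4.53, -4.83 and -6.58 on the low quality 8CS arrays, and 11 of the 12 spots there were well above background. On the high quality 8CS arrays it stood at -8.25, -7.83 and -7.69, with 0 of 12 spots well above background. Low quality array 3 lay well below the other 2 arrays of its group. Its level of -6.58 was above each high quality level, but under -6.04, the dimmest level counted as well above background on high quality array 1. These 2 arrays therefore cannot be put in order for *mhc2a*. In raw processed signal, the spots read 49.7 to 58.4 on low quality array 1, 49.0 to 53.1 on array 2 and 6.70 to 12.1 on array 3. The high quality spots read 2.06 to 10.2. In 6 of these 12 the software had put the signal's error in place of a value too low to measure, and such values have no order.

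The difference of the *mhc2a* means was 2.61 on the log2 scale, with an adjusted p of 0.0744 from limma. Since no high quality array was well above background, only a lower limit of the fold can be had. It sets the low quality mean against the mean of a floor per high quality array, which is the dimmest level counted as well above background there, or the probe's own level if that is higher. The mean of *mhc2a* in low quality embryos exceeded this floor at least 2.52-fold. This holds for the mean and not for each array. Low quality array 3, at -6.58, stood against floors of -6.04, -6.95 and -6.95 on the high quality arrays. Without low quality array 3 this limit was 3.91-fold and the adjusted p in limma 0.0110, so that *mhc2a* passed. Leaving out each of the other 5 arrays gave limits between 1.92 and 3.11. However, *mhc2a* reached the filter for low signal, the 20th percentile of an array, only on low quality arrays. Its p-values between the qualities are therefore not read as support. The normexp correction starts from the median signal of each spot, uses its local background and adds an offset of 50. With it low minus high turned to -0.11 for *mhc1a* and -0.30 for *mhc2a*, while the median of all probes moved to -0.35. The *mhc2a* spots of these arrays read only 2.06 to 58.4 in processed signal, and the part of the offset in this change was not tested. With the local backgrounds that the software flagged as outliers replaced first, the same correction gave 0.38 for *mhc1a* and 0.24 for *mhc2a*.

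**Figure D1:**
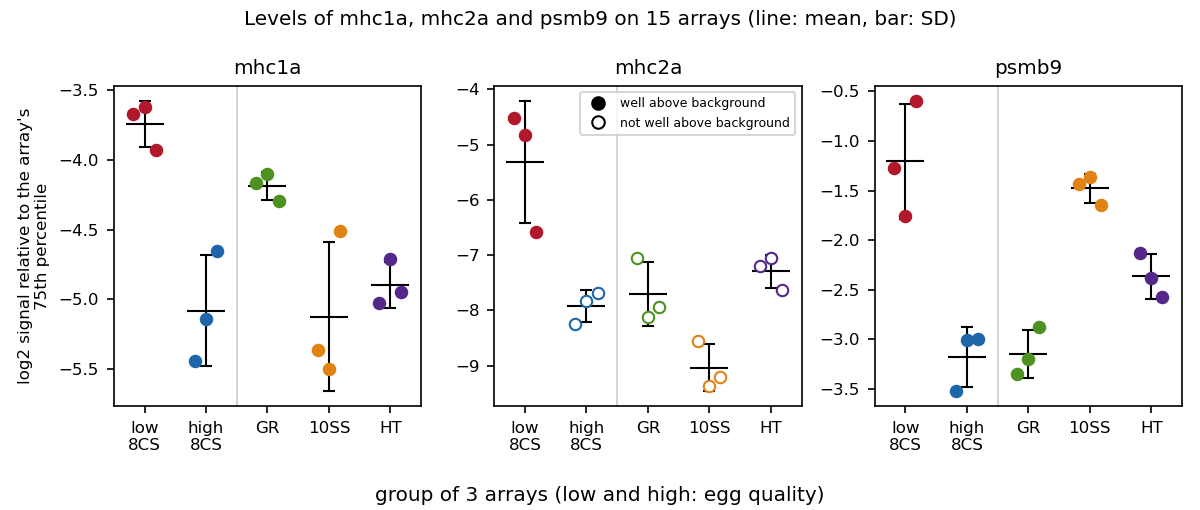
Levels of *mhc1a*, *mhc2a* and *psmb9* (log2 of processed signal relative to the 75th percentile of the array, vertical axes differ) on each of the 15 arrays by group, with the group mean (line) and SD (bar) over 3 arrays. Filled points are well above background; for *mhc2a* only the 3 low quality 8CS points are filled, and the low quality points of all 3 transcripts lie above the high quality 8CS points.

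None of the 3 transcripts passed both limits in limma, though all 3 had an unadjusted p under 0.05, as had 2719 probes. The limits were an adjusted p under 0.05 and a 2-fold difference, and 1.17% of the 8737 probes kept in this fit passed them (102 probes). Of all probes kept, 14 passed as higher in low quality embryos (0.16%) and 88 as lower (1.01%). This split depended on the scaling, with 39 of 88 calls higher under quantile, 38 of 92 in the deposited table and 2166 of 2375 under spike-in scaling. By level, every low quality array lay above every high quality array for all 3, as for 18.3% of the probes kept. With a difference of at least 2-fold besides, this held for 1.72%. For *mhc2a* the high quality values include replacements by the error, so its order by level is not a measured one. Because the study chose the 3 transcripts on this contrast, nothing is read from these counts. The calls depended on single arrays and on the setting. Without high quality array 3 all 3 transcripts passed in limma, with adjusted p of 0.00623 for *mhc1a*, 0.0381 for *mhc2a* and 0.0179 for *psmb9*. In that fit 708 probes passed in all, and the p-value of *mhc2a* is again not read as support.

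Slides 1 and 4 each held both qualities. On slide 1, with 1 low and 2 high quality arrays, low minus high was 1.62 for *mhc1a*, 3.51 for *mhc2a* and 1.99 for *psmb9*. On slide 4, with 1 array of each, it was 0.73 for *mhc1a*, 1.11 for *mhc2a* and 2.41 for *psmb9*. Each transcript was higher in low quality embryos on both slides. That sign was fixed in advance, since by level every low quality array lay above every high quality array, so it adds no support. For *mhc2a* the high quality values lay near background, so the size of its differences is not read either.

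**Figure D2:**
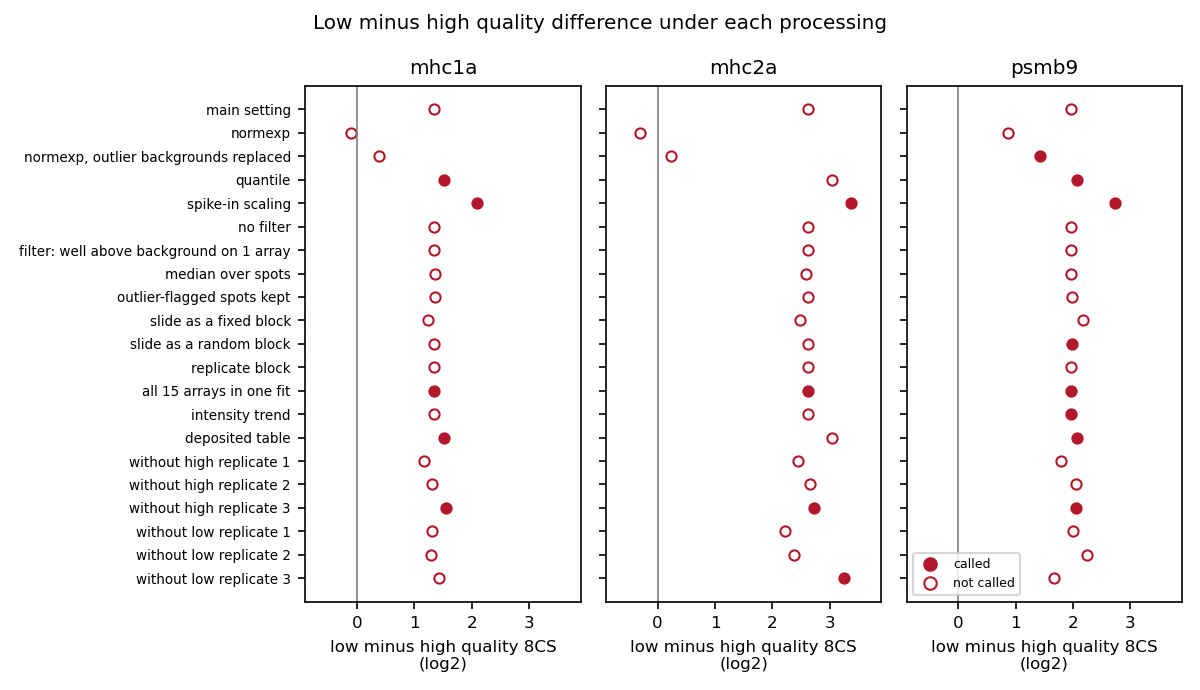
Low minus high quality 8CS difference (log2, horizontal axis) of each transcript under the main setting and each alternative (rows), filled where the adjusted p was under 0.05 and the difference at least 2-fold. The normexp correction puts *mhc1a* at -0.11 and *mhc2a* at -0.30, while the other rows lie right of 0.

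The detection of *mhc2a* was followed spot by spot over all groups. Its 60 spots held 13 that were well above background, 11 of them in low quality 8CS and 2 at HT, and 26 in which the error stood in place of the signal. At GR 11 of the 12 spots were such replacements, and at 10SS 9 of 12. At HT none was, all 12 spots were significantly positive and above the highest negative control spot of their array, and they read 11.6 to 28.8. In raw signal the HT spots thus overlapped those of low quality array 3 and lay below those of arrays 1 and 2. HT array 2 had 2 of 4 spots well above background and did not reach the limit of more than 50%.

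Of the 10180 probe names, 18 (0.177%) were well above background on all 3 low quality 8CS arrays and on no high quality 8CS array. *mhc2a* was 1 of them. The reverse pattern held for 32 names (0.314%). For 3 names (0.0295%) none of the 12 other arrays was well above background either. These 3 were *mhc2a*, HH_90602669 and HH_90602324, to which the tables used here give no name. The study chose *mhc2a* on the contrast of qualities, so its place among the 18 and the 3 is not read as a result. The *psmb9* record had led to HH_90602669 by its number and not by its level. But the study listed that record for this same contrast, so the place of HH_90602669 is not read as a result either.

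HH_90602669 stood at -5.96, -6.69 and -6.19 on the low quality 8CS arrays, with 11 of 12 spots well above background. On the high quality 8CS arrays it stood at -8.04, -8.89 and -8.48, and all 12 spots there were replacements by the error. Its adjusted p was 0.0334 in limma, and low quality embryos exceeded the floor at least 1.29-fold. This probe too reached the filter for low signal only on low quality arrays, so its p is not read as support. Under normexp its low minus high difference turned to -0.51, and to -0.092 with outlier backgrounds replaced. Its 12 spots read 4.88 to 21.1 at 10SS, and 12.1 to 30.0 at HT in the 11 spots used, of which 2 were well above background. These raw signals overlapped those of low quality 8CS, 11.8 to 23.6. At GR 9 of its 12 spots were replaced by the error, whereas the *psmb9* contig was measured there in every spot.

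**Figure D3:**
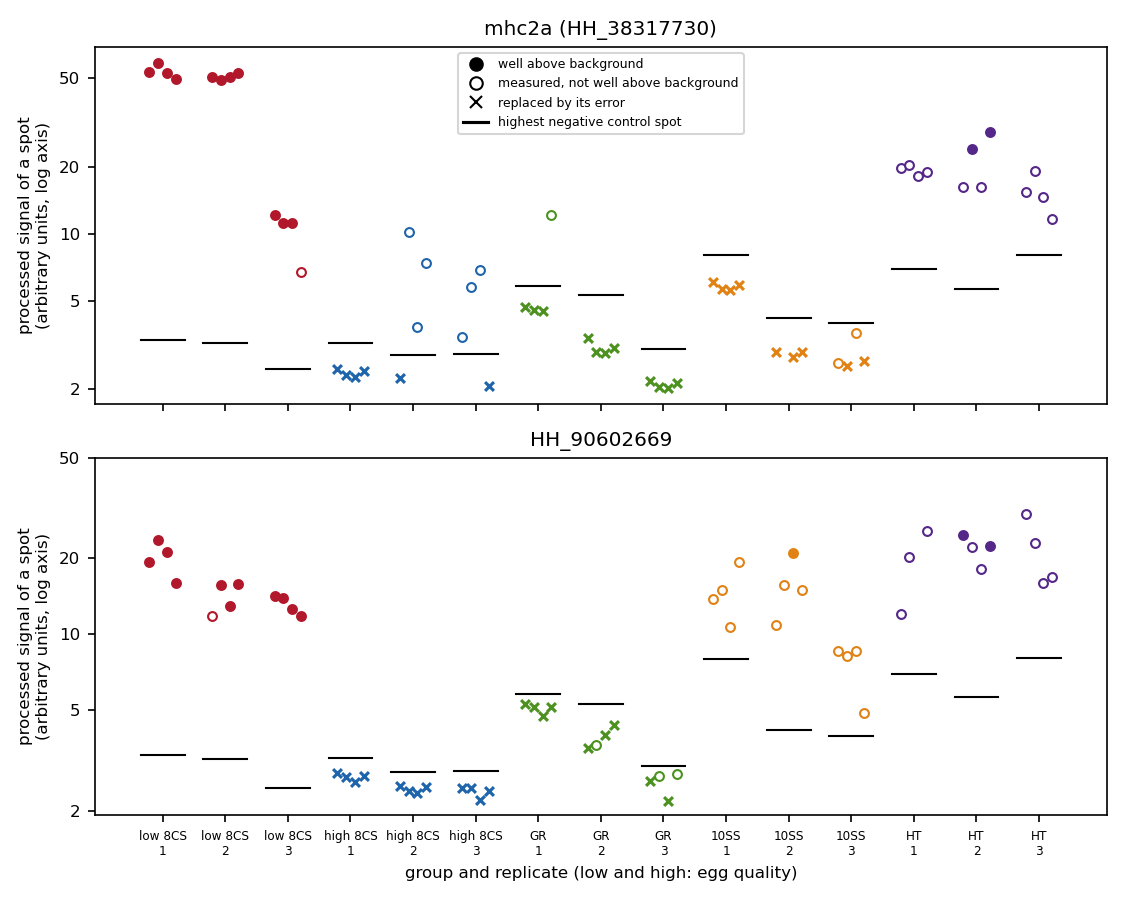
Processed signal of single spots (arbitrary units, log axis) of *mhc2a* and of HH_90602669 on the 15 arrays, by group and replicate. Crosses are spots whose signal was replaced by its error, black lines the highest negative control spot of the array, and 1 outlier spot of each probe is left out; the *mhc2a* spots of low quality arrays 1 and 2 read 49.0 to 58.4 and those of HT 11.6 to 28.8.

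Over the 4 stages of high quality embryos, *psmb9* changed and *mhc1a* did not pass both limits. *psmb9* stood at -3.18 ± 0.30 at 8CS and at -3.35, -3.20 and -2.88 at GR. It was at -1.43, -1.36 and -1.64 at 10SS and at -2.13, -2.38 and -2.58 at HT. The 10SS arrays lay above all others of the series of stages, the HT arrays next, and the GR and 8CS arrays overlapped.

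The moderated F test of limma over the 12 arrays gave *psmb9* an adjusted p of 0.000145, with a range of stage means of 1.70 (3.24-fold). Of all probes kept, 82.9% passed the same rule (7695 of 9283), so most of the array differed among stages as well. 10SS minus high quality 8CS was 1.70 (95% interval 1.19 to 2.20, adjusted p = 8.55e-05), a contrast in which 26% of probes were called higher. The study chose the 3 transcripts as lower in high than in low quality 8CS, which favours higher values at the later stages. This bears on the F test too, as would another collection behind the high quality 8CS arrays. Against GR, which shares no array with the choice of the 3 transcripts, 10SS was 1.66 higher (95% interval 1.16 to 2.17, adjusted p = 0.000405, 18.1% of probes called higher). By limma, HT minus high quality 8CS was 0.81 (adjusted p = 0.00842), HT minus GR 0.78 (adjusted p = 0.0115) and HT minus 10SS -0.89 (adjusted p = 0.0233), all under the 2-fold limit. These 3 contrasts called neither *psmb9* nor *mhc1a*, beside 63.8%, 58% and 14.5% of probes in either direction. GR minus high quality 8CS was 0.03 with a 95% interval of -0.47 to 0.54, and it called neither transcript, beside 42.2% of probes.

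Slides 2 and 3 each held 1 array of 10SS and 1 of GR. There *psmb9* was higher at 10SS than at GR by 1.92 and 1.83. Without 10SS array 3 the range of its stage means was 1.78, with an adjusted p of 7.53e-05 in limma. Under normexp the range was 0.86 and the call was lost (adjusted p = 0.433).

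*mhc1a* stood at -5.08 ± 0.40 at high quality 8CS and at -4.16, -4.10 and -4.30 at GR. It was at -5.36, -5.50 and -4.51 at 10SS and at -5.03, -4.71 and -4.95 at HT. GR was the highest stage, with all 3 arrays above every other high quality array, while 8CS, 10SS and HT overlapped, although HT was the highest with spike-in scaling, and normexp made GR minus high quality 8CS -0.050. The value of -4.51 was that of 10SS array 3, the array that stood apart.

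The adjusted p of the limma F test was 0.0351 for *mhc1a*, and its range of stage means, 0.94 or 1.92-fold, was under the 2-fold limit. GR exceeded high quality 8CS by 0.90 (95% interval 0.25 to 1.54, adjusted p = 0.0258), and 10SS minus GR was -0.94 (adjusted p = 0.0217). The choice of *mhc1a* as low in high quality 8CS favours the sign of the first contrast and bears on the F test. The second contrast uses none of those arrays. With an array left out, the adjusted p ran up to 0.120 (without GR array 2). Without 10SS array 3 the range was 1.25 with an adjusted p of 0.00166, and *mhc1a* passed both limits. Without high quality 8CS array 3 it was 1.11 with an adjusted p of 0.0216, and it passed as well. 10SS minus high quality 8CS was -0.04 with a 95% interval of -0.69 to 0.60, and HT minus high quality 8CS was 0.19 with an interval of -0.46 to 0.83. With the slide as a fixed block, HT minus high quality 8CS was -1.33 with an adjusted p of 0.0121, and all 3 HT arrays shared slide 5. On slides 2 and 3, 10SS minus GR was -1.20 and -1.40.

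*mhc2a* reached the 20th percentile of no array among the 12, the filter for low signal, so its stages were not tested. Its mean was -7.92 ± 0.29 at high quality 8CS and -7.71 ± 0.58 at GR. At 10SS it was -9.04 ± 0.43, and at HT -7.30 ± 0.30. No array of these was well above background, and no fold or order is given.

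Low quality 8CS embryos were also set against the later stages, in a limma fit over all 15 arrays. The later stages contain other cells than an 8-cell embryo, by the methods came from another collection, and most probes differ. These contrasts therefore place the levels and do not repeat the comparison of qualities. GR minus low quality 8CS was -0.45 for *mhc1a* (adjusted p = 0.178) and -1.94 for *psmb9* (adjusted p = 6.87e-05). 10SS minus low quality 8CS was -1.39 for *mhc1a* (adjusted p = 0.000596) and -0.27 for *psmb9*, whose 95% interval ran from -0.88 to 0.34. HT minus low quality 8CS was -1.16 for *mhc1a* (adjusted p = 0.0019) and -1.16 for *psmb9* (adjusted p = 0.00236). In these relative levels of *psmb9* the 10SS and the low quality 8CS arrays overlapped, and no other group reached that level. In raw processed signal its HT spots, 476 to 650, lay within the range of low quality 8CS, 423 to 697.

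In levels relative to the rest of each array, the low quality mean of *mhc2a* lay above the mean floor of each of the 3 later stages. This does not hold array by array. Low quality array 3 (-6.58) lay under the floors at GR (-5.46, -5.97 and -6.21) and under that of 10SS array 1 (-6.51), where no order can be given. The limits were at least 1.48-fold at GR, at least 3.53-fold at 10SS and at least 3.74-fold at HT. They allow for the floor of detection but not for the scaling between arrays. In raw processed signal, the spot means of the HT arrays were 19.3, 21.3 and 15.2. Those of the low quality arrays were 53.5, 50.8 and 10.3, so the groups overlapped. The adjusted p of *mhc2a* in limma was 0.00074 against GR, 1.33e-05 against 10SS and 0.0019 against HT. However, *mhc2a* passed the filter for low signal in this fit only through the low quality arrays. Most of its GR and 10SS spots were replacements by the error, so these p-values are not read as support. The 3 transcripts were chosen for being high on these low quality arrays, which favours lower values at the later stages. The direction of these contrasts is therefore not independent evidence. Of the 9 contrasts, 7 passed both limits by the fitted difference, each lower at the later stage. For *mhc2a* against GR the supported limit of 1.48-fold is under 2-fold, which leaves 6. Both counts include contrasts of *mhc2a*, which are not read as support. Of the 6 contrasts of *mhc1a* and *psmb9*, 4 passed. With spike-in scaling 4 of the 9 passed by the fitted difference, and HT minus low quality 8CS turned to 0.46 for *mhc1a* and for *psmb9*. With normexp 0 passed in limma. Shares of all probes passing in these settings are not given, so these counts are not read as a result. In the main setting, 21.2% of all 9353 probes kept passed as lower at GR, 28.5% at 10SS and 31.9% at HT.

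Named genes around the 3 transcripts came from lists of ubiquitin and protein turnover, immune defence and the secretory pathway, drawn from names in the tables of the study, which had picked them on these arrays, so that their directions are not independent evidence. Of 11 genes of ubiquitin and protein turnover, 1 passed as higher in low against high quality 8CS (0.16% of all probes did). With spike-in scaling 4 did, beside 2166 of all 8737 probes kept. The 1 gene was *rnf213*, which encodes a large ubiquitin ligase. It stood at -4.29, -4.07 and -4.13 in low and at -5.75, -6.92 and -6.08 in high quality embryos, with 1 of the 3 high quality arrays well above background and an adjusted p of 0.0405 in limma. Under normexp its difference was -0.087, and 0.41 with outlier backgrounds replaced. The median difference of the list was 0.16, beside -0.06 over all probes kept.

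Of 17 genes of immune defence 12 were tested, of which 2 passed as higher in low quality embryos and 1 as lower, beside 0.16% and 1.01% of all probes. Under normexp 0 passed in limma (2 at an unadjusted p under 0.05), as over all probes. With spike-in scaling 5 passed as higher and 1 as lower, where 2375 of all 8737 probes passed, 2166 of them as higher. *ms4a8a*, a membrane protein with 4 spans by its family name, was higher by 1.35 (adjusted p = 0.0292). *pd-1l*, which encodes the ligand of an inhibitory T cell receptor, was higher by 1.91 (adjusted p = 0.0342). *irf7*, a transcription factor of the interferon response, stood at -4.39, -4.16 and -3.83 in low and at -0.52, -1.70 and -1.55 in high quality embryos, a difference of -2.87 with an adjusted p of 0.0275 in limma. *irf7* and the 3 antigen presentation transcripts stood on opposite sides of 0, except under normexp, where *mhc1a* and *mhc2a* were below 0 as well. *ms4a8a*, *pd-1l* and *irf7* kept their signs under every scaling tried. The median of the list was -0.10, and 0.65 with spike-in scaling, beside 0.70 over all probes. None of the 6 tested genes of the secretory pathway (7 listed) passed in limma, 1 had an unadjusted p under 0.05, and their median was 0.14.

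In HT minus GR, 11 of 11 genes of the ubiquitin list were called lower (31.4% of all probes were), while the difference of *psmb9* was 0.78. The list's median was -2.13, and 0.51 with spike-in scaling, which moved the median of all probes to 2.42, so that its direction there depends on the scaling. The secretory list had 6 of 7 genes called higher at 10SS than at GR (18.1% of all probes were), as was *psmb9*. Its median was 1.74 there and above 0 under each scaling tried. But 2 of its genes were called under normexp, where *psmb9* was not, and 3 with outlier backgrounds replaced. The median of all probes was -0.78 and -0.63 in these settings. Shares of all probes called there are not given, so these counts are not read as a result about the list. Of 17 genes of immune defence, 8 were called higher and 7 lower at HT than at GR, beside 26.6% and 31.4% of all probes. This split was 1 higher and 7 lower under normexp, 2 and 8 with outlier backgrounds replaced, and 11 and 2 with spike-in scaling. The median of all probes was -0.92, -0.70 and 2.42 in these settings. Shares of all probes called there are not given, so the split is not read as a result about the list.

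**Figure D4:**
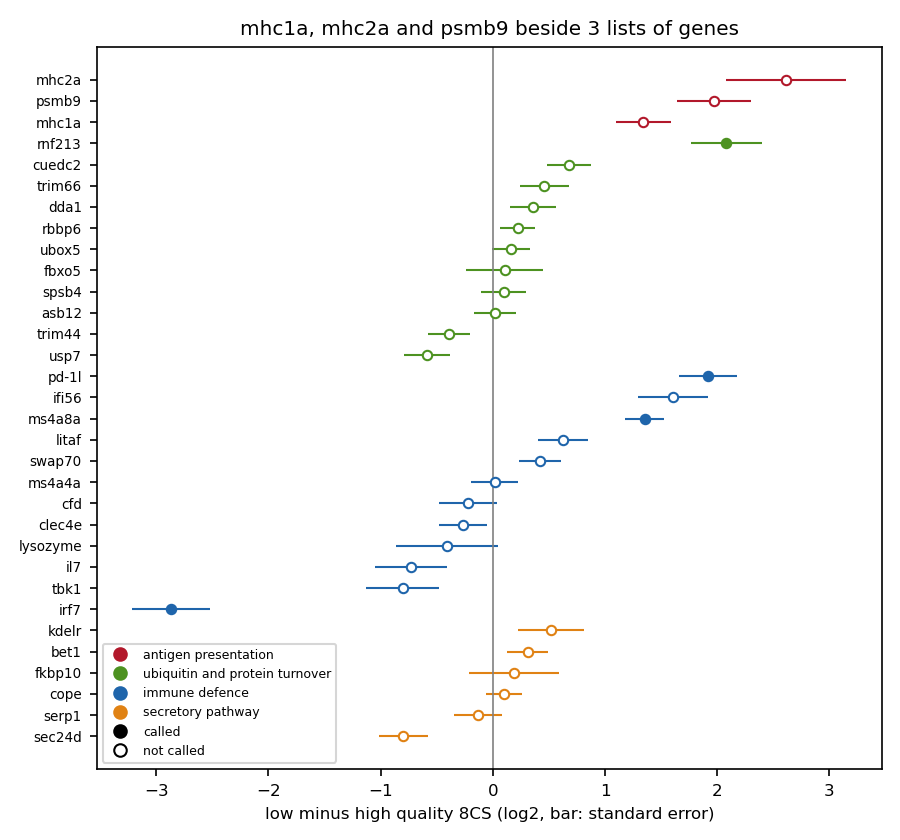
Low minus high quality 8CS difference (log2, points; bars are standard errors of the limma fit) of the 3 antigen presentation transcripts and of the tested genes of 3 lists, filled where called. *mhc2a* (2.61), *psmb9* (1.97) and *mhc1a* (1.34) lie right of 0 with *rnf213*, *pd-1l* and *ms4a8a*, and *irf7* lies at -2.87.

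The probes most like *mhc1a* and *psmb9* over the 15 arrays were found among the 6372 probe names well above background on all of them (62.6%), by the root mean square difference of log2 values after centring each probe. For *mhc1a* they were HH_90607261 (0.29), HH_Contig1488 (0.29) and HH_90601682 (0.31), against a median of 0.96 over 6371 probes. For *psmb9* they were HH_90988365 (0.46), HH_90606263 (0.51) and HH_94963222 (0.52, listed as cyclin-dependent kinase inhibitor 3), against a median of 1.28. Of the 6371 probes, *psmb9* was number 3139 in likeness to *mhc1a*, and *mhc1a* was number 914 in likeness to *psmb9*. The 15 points fall into 5 groups, so they are not independent. *mhc2a* was left out of the search, since it was not well above background on 12 of the arrays.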

How the data were processed

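What the authors deposited per array is the spot table written by Feature Extraction (version 10.7.1.1 in the file headers, 7.2 in the submitters' processing notes), whose processed signal is a linear intensity after background subtraction, not yet comparable between arrays. A second deposited table holds log2 values of 9017 probes, scaled by the authors to the 75th percentile and centred on a median, and served as an alternative. The 3 arrays of a group limit the precision. Control spots and outlier spots (749 to 1186 of 43803 per array) were dropped, and no spot was saturated. Signals were put on a log2 scale, the 75th percentile of the array was subtracted, and spots of one probe were averaged. A fit kept the probes that reached the 20th percentile of some array in it, 8737 for the qualities (6 arrays) and 9283 for the stages (12 arrays). Linear models with moderated variances (limma 3.58.1, R 4.3.3) were used, p-values were adjusted by Benjamini-Hochberg over the probes kept, and a call needed an adjusted p under 0.05 and a 2-fold difference. Alternatives were normexp with offset 50, the same after replacing outlier backgrounds, quantile and spike-in scaling (using 8 of 10 spike-ins), other filters and spot summaries, blocks for slide or replicate, a joint fit of 15 arrays, an intensity trend, no 2-fold limit, the second table and single arrays left out. The labels give replicate numbers without a shared origin. Same-numbered arrays deviated together between 10SS and high quality 8CS (correlations 0.35, 0.44 and 0.57). Between the other groups compared the highest correlation was 0.13. Deviations within a group sum to 0, so the 3 correlations are not separate signs of a pairing. The replicate block changed no call of *mhc1a* or *psmb9*. The 3 transcripts, the lists and these choices were set with earlier results of these data known. Named genes were the 3 transcripts, called genes of the lists, *irf7*, *rnf213*, the probe reached by the record number and the 3 probes most like *mhc1a* and *psmb9*. HH_90602324 was named after its values were seen. The scripts were tested on simulated data, and qPCR values were not used.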

Additional observations from a re-analysis of the deposited data

How the results depend on the processing

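The count of 102 probes between qualities moved to 0 with normexp (311 at an unadjusted p under 0.05), 2375 with spike-in scaling, 23 with the slide as a fixed block, 344 with all 15 arrays in one fit, 158 with an intensity trend, and between 11 and 708 with an array left out. The count over the stages stayed within 1.5 times throughout. Spike-in scaling moved the median of all probes in low minus high to 0.70, in 10SS minus high quality 8CS to 1.50 and in HT minus high quality 8CS to 2.26. Low minus high reversed with normexp for *mhc1a* (-0.11) and *mhc2a* (-0.30) but was 0.38 and 0.24 once outlier local backgrounds were replaced, where *psmb9* passed at 1.43. *mhc1a* passed with quantile (1.52), spike-in scaling (2.10), all 15 arrays (1.34) and the deposited table (1.52), *mhc2a* with spike-in scaling (3.37) and all 15 arrays (2.61), and *psmb9* with quantile (2.06), spike-in scaling (2.72), the slide as a random block (1.975), all 15 arrays (1.97), the trend (1.97) and the deposited table (2.07). The passes of *mhc2a* are not read as support, since it reached the filter for low signal only on low quality arrays. With an array left out, *mhc1a* ranged from 1.16 to 1.56, *mhc2a* from 2.22 to 3.25 and *psmb9* from 1.66 to 2.24.

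The labels give the replicates numbers but no shared origin. The correlation of same-numbered deviations of low and high quality arrays was 0.01, -0.11 and -0.09, so no pairing by number was seen. These values are not separate from each other, and a shared origin was not tested. With the replicate number as a block, 17 probes passed, and the adjusted p in limma was 0.133 for *mhc1a*, 0.135 for *mhc2a* and 0.114 for *psmb9*; over the stages and against low quality 8CS the block changed no call of *mhc1a* or *psmb9*.

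Over the stages, the range of *mhc1a* passed with replaced backgrounds (1.27), quantile (1.43), spike-in scaling (2.56), slide as a fixed (1.68) or random block (1.44) and the deposited table (1.40), and ran from 0.90 to 1.25 with an array left out. That of *psmb9* was lost with normexp (0.86). That of *mhc2a*, between values at background, passed with no filter (1.74) and with all 15 arrays (1.74). Contrasts of *mhc1a* that reversed were GR minus high quality 8CS (normexp -0.050), 10SS minus high quality 8CS (spike-in 1.51, -0.35 to 0.17 with an array left out), HT minus high quality 8CS (normexp -1.65, replaced backgrounds -0.73, quantile -0.60, slide fixed -1.33 and random -0.86, deposited table -0.57), 10SS minus GR (spike-in 0.88), HT minus GR (spike-in 1.93), HT minus 10SS (normexp -0.26, replaced -0.12, quantile -0.24, slide fixed -0.38 and random -0.25, deposited table -0.22), GR minus low quality 8CS (normexp 0.056, replaced 0.16) and HT minus low quality 8CS (spike-in 0.46). Contrasts of *psmb9* that reversed were GR minus high quality 8CS (normexp -0.28, spike-in -0.24, -0.14 to 0.14 with an array left out), HT minus high quality 8CS (normexp -0.37), HT minus GR (normexp -0.090), 10SS minus low quality 8CS (spike-in 0.52, slide fixed 0.090, -0.55 to 0.035 with an array left out) and HT minus low quality 8CS (spike-in 0.46). Of the 9 contrasts with low quality 8CS, those of *mhc2a* included though not read as support, 0 passed with normexp and 4 with spike-in scaling. Leaving out arrays there was chosen after seeing the data and gave 6 or 7. The shares of all probes passing in these settings are not given, so none of these counts is read as a result. The cause of these moves was not tested.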
